A study of Mus musculus with 12 samples.

Results

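The genes described here encode the proteins of the cytosolic ribosome, and their RNA was measured in T helper 17 (Th17) and T helper 1 (Th1) cells with and without the glucose transporter GLUT3, the product of Slc2a3. They are the rows annotated as protein-coding whose symbols begin with Rpl or Rps followed by a number and at most 1 of the letters a, x, y or l, together with Rplp0, Rplp1, Rplp2 and Rpsa. This name rule, which uses no measured value, took 81 of the 45703 genes in the tables, 50 of the large and 31 of the small subunit. It leaves out ribosomal proteins with other kinds of names, among them Fau, Rack1 and Rps3a1, which were followed as a separate list. The 4 groups hold 3 libraries each of mouse cells on a C57BL/6 background. They are Th17 KO and Th1 KO, with genotype Slc2a3-fl/fl Cd4-cre, and Th17 WT and Th1 WT, labelled wild type. In the KO, Cre expressed from the Cd4 promoter removes the floxed gene in developing T cells. The labels do not say that the WT libraries carry Cre, nor that replicates are separate animals or cultures, so the p-values reflect no more than how these libraries vary, which may be technical. All cells came from naive T cells that had been stimulated through CD3 and CD28 and polarized for 3 days in culture.

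A ribosome joins a large subunit, which holds the peptidyl transferase centre, and a small subunit, which decodes the mRNA. Each ribosomal protein is needed in about the same number of copies, so cells make their mRNAs and proteins in a coordinated way. The mRNAs of vertebrate ribosomal proteins begin with a cytosine followed by a run of pyrimidines, the 5′ terminal oligopyrimidine (TOP) tract. Through this tract the kinase complex mTORC1 and the RNA-binding protein LARP1 control their translation and stability. T cells that leave the resting state enlarge their ribosome pool before they divide.

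The tract can be read at the gene starts. The windows printed here are RefSeq sequence of GRCm38.p6, 10 bases before the annotated start and 20 bases from it, given 5′ to 3′ on the gene's own strand, with a run of C and T that begins with C and holds at least 8 bases in capitals. They are shown because this tract is the sequence feature the family is known for. Rpl15 and Rpl27a hold long runs, Rps6, Rpl13a and Rplp2 are described by role further on, and Rps15a had the lowest fold change of all members in both lineages.
Rps6 (chr4:86857348-86857377, minus strand): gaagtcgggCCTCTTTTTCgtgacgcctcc
Rpl15 (chr14:18270967-18270996, minus strand): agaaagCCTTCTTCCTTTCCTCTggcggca
Rpl27a (chr7:109519185-109519214, plus strand): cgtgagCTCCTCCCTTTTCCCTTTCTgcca
Rpl13a (chr7:45128726-45128755, minus strand): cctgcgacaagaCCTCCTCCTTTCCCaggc
Rplp2 (chr7:141447641-141447670, plus strand): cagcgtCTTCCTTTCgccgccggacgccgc
Rps15a (chr7:118116128-118116157, minus strand): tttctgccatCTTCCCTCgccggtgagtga
Of the 51 members with a RefSeq window at the gene start given in the tables, 13 (25.5%) held such a run beginning within 5 bases of the start, searched on the gene's strand only. Among all protein-coding genes with a window, 369 of 10583 (3.49%) did. A match describes the letters in the window, and no match says only that no such run begins within 5 bases of the annotated start. That start can differ from the one used in the cell. In Rpl14 and Rpl35, which count as no match, a run of C and T that begins further upstream covers the annotated start. The median log2 fold change, KO over WT, was -0.81 in Th17 and -1.11 in Th1 for the 13 members with a match. It was -0.83 in Th17 and -1.04 in Th1 for the 36 tested members with a window but no match, Rpl14 and Rpl35 among them.

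The values are TPM (transcripts per 1000000): reads per exon length, with every library brought to 1 common total, so each is a share of a library and not an amount per cell. In bulk samples, fewer cells of a type and less RNA per cell cannot be told apart. The libraries held 16596283 to 28496606 reads. The targeted gene Slc2a3 stood at 5.14, 18.7 and 3.3 TPM in Th17 KO libraries, against 379, 109 and 44.6 TPM in Th17 WT libraries. It stood at 6.79, 4.49 and 7.97 TPM in Th1 KO libraries, against 398, 95.6 and 64.7 TPM in Th1 WT libraries. Th17 KO replicate 2 stood apart from the other libraries of its group, with a median absolute log2 difference over all genes of 0.62, against 0.14 to 0.42 in the other 11 libraries, and it had the highest Slc2a3 of the KO libraries. The difference of the summed level and the main medians and counts of the members are therefore also given without it. The other values that use Th17 KO include it, among them gene-level fold changes, subunit ratios, length classes and trend-removed values. Helper T cell markers (Cd3e, Cd3d, Cd3g, Trac, Lck, Cd28 and Cd4) summed to 4868 to 5801 TPM in Th17 KO, 4199 to 5273 TPM in Th17 WT, 5899 to 6154 TPM in Th1 KO and 4259 to 4768 TPM in Th1 WT.

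Together the members took a smaller share of the RNA in both KO groups, and the large and small subunits did so to nearly the same degree. Their summed level was 60630.1, 34577 and 65978 TPM in Th17 KO libraries, against 99138, 79969 and 93278 TPM in Th17 WT libraries. It was 51272, 51268 and 46985 TPM in Th1 KO libraries, against 107495, 102893 and 94048 TPM in Th1 WT libraries. Every KO library lay below every WT library in both lineages, and Th17 KO replicate 2 was the lowest of all 12. As a share of TPM the members made up 5.37 ± 1.68% in Th17 KO and 9.08 ± 0.98% in Th17 WT (SD, n = 3 each). In Th1 the shares were 4.98 ± 0.25% in KO and 10.1 ± 0.68% in WT (SD, n = 3 each). The mean log2 difference of the summed level, KO minus WT, was -0.81 in Th17 and -1.02 in Th1, and without Th17 KO replicate 2 it was -0.52 in Th17. No p-value is given for sums over the members.

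The large subunit members summed to 30206 ± 9351 TPM in Th17 KO and 51865 ± 5597 TPM in Th17 WT (SD, n = 3 each). In Th1 they summed to 28223 ± 1199 TPM in KO and 57827 ± 4236 TPM in WT. The small subunit members summed to 23522 ± 7449 TPM in Th17 KO and 38930.2 ± 4266 TPM in Th17 WT. In Th1 these sums were 21618 ± 1278 TPM in KO and 43652 ± 2655 TPM in WT. The log2 ratio of large to small subunit sums was 0.36 ± 0.01 in Th17 KO, 0.41 ± 0.03 in Th17 WT, 0.39 ± 0.03 in Th1 KO and 0.40 ± 0.03 in Th1 WT (SD, n = 3 each). Its values ran from 0.35 to 0.38 in Th17 KO and from 0.38 to 0.43 in Th17 WT, and from 0.36 to 0.41 in Th1 KO and from 0.38 to 0.44 in Th1 WT. All Th17 KO values lay below all Th17 WT values, though by little, while the Th1 groups overlapped. The mean difference, KO minus WT, was -0.05 in Th17 and -0.02 in Th1, small beside the fall of the sums themselves. Split by exon length the difference had opposite signs: among the shorter members the difference was -0.085 in Th17 and -0.081 in Th1, and among the longer ones it was 0.031 in Th17 and 0.081 in Th1. With the exon length trend removed it was -0.06 in Th17 and -0.05 in Th1.

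**Figure D1:**
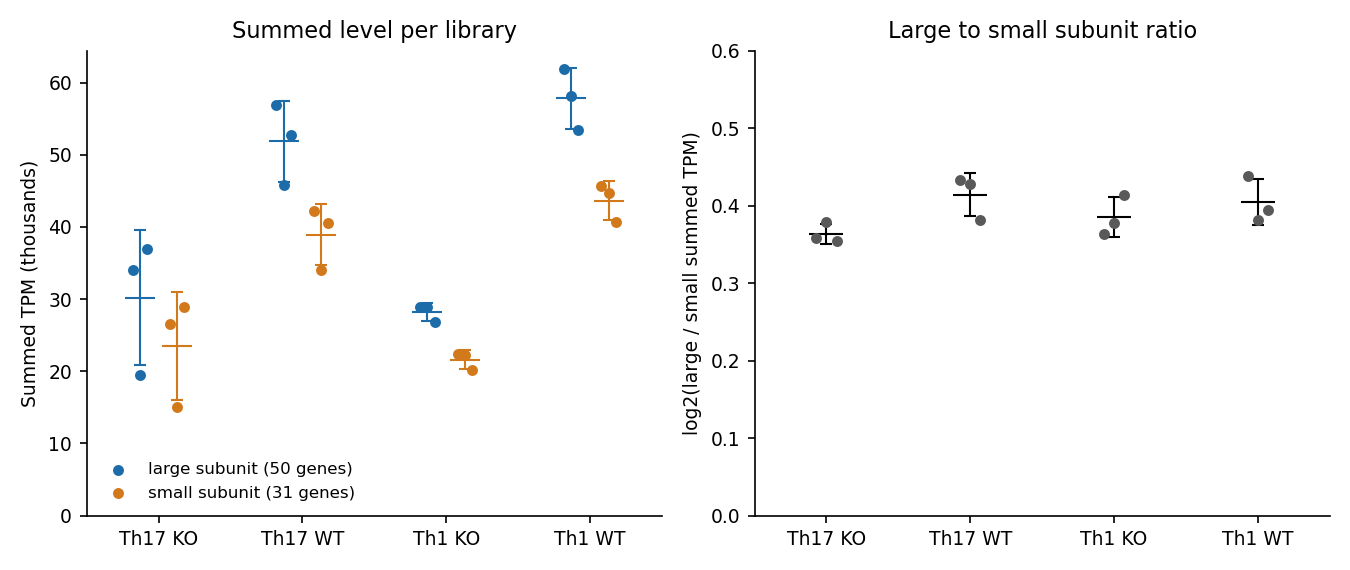
Left, summed TPM (in units of 1000) of the 50 large and 31 small subunit members per library in the 4 groups; right, the log2 ratio of both sums. Points are libraries, dashes group means and bars SD (n = 3 per group); all KO sums lie below all WT sums of the same lineage, while the ratio stays between 0.35 and 0.44.

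Single members spanned a wide range of levels per exon length. Rplp0 was the highest on average over the 12 libraries, followed by Rpl13 and Rps14, and no test was made between neighbours in this order. At least 100 TPM in the group mean was reached by 74 members in Th17 KO, 75 in Th17 WT, 75 in Th1 KO and 76 in Th1 WT. At least 1000 TPM was reached by 16 members in Th17 KO and 32 in Th17 WT, and by 16 in Th1 KO and 39 in Th1 WT. The lowest of the family were paralogs with a restricted tissue range. Rpl10l, a testis paralog of Rpl10, was listed at 0 in all 12 libraries, and Rpl3l, a paralog of Rpl3 in striated muscle, had at most 2 reads in a library. Both failed the filter of at least 1 TPM in 3 libraries of a fit, which left 79 of the 81 members tested, 48 of the large and 31 of the small subunit. On an exon length of 1 kb, 3 reads amount to between 0.19 and 0.44 TPM depending on the library, which covers counting error only.

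In Th1 cells nearly the whole family fell in the absence of GLUT3, to about the same extent in both subunits. Of the 79 tested members 77 were called lower in KO than in WT and none higher (limma on log2(TPM + 1), adjusted p under 0.05 over 13487 genes), 47 of 48 of the large and 30 of 31 of the small subunit. Over all genes tested, 13.7% were called lower. For the same 77 members every KO library lay below every WT library, against 20.8% of all genes tested. The median log2 fold change, KO over WT, was -1.004 for the large and -1.003 for the small subunit, while the median over all genes tested was 0.03. The quartiles of the members' values were -1.17 and -0.90. The 2 members without a call were Rps27l and Rpl39l. The count stayed between 73 and 77 under every alternative run, leaving out each library included.

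The 10 members with the smallest adjusted p in Th1 were Rpl37a, Rpl14, Rpl9, Rpl36a, Rpl11, Rps4x, Rps12, Rplp1, Rps9 and Rpl27a, the last tied with Rps7 and Rps15a. Rpl37a, a zinc-binding protein of the large subunit (chromosome 1, 72711260 to 72713813), had 448, 427 and 351 TPM in Th1 KO libraries, against 1198, 1112 and 1089 TPM in Th1 WT libraries. All 3 KO values lay far below all 3 WT values, and the log2 fold change was -1.48 ± 0.14 (SE), adjusted p = 0.000192, the largest fall of the large subunit. Rpl14 (chromosome 9, 120571517 to 120574653) had 859, 932 and 864 TPM in Th1 KO libraries, against 2375, 2317 and 1976 TPM in Th1 WT libraries, a log2 fold change of -1.32 ± 0.13 (SE), adjusted p = 0.00021. Rpl36a had 276, 243 and 213 TPM in Th1 KO libraries, against 616, 610.0 and 681 TPM in Th1 WT libraries, a log2 fold change of -1.38 ± 0.14 (SE), adjusted p = 0.000288. Again no KO library reached a WT library. Rps12 had 186, 178 and 154 TPM in Th1 KO libraries, against 489, 410.2 and 431 TPM in Th1 WT libraries, and its log2 fold change was -1.36 ± 0.14 (SE), adjusted p = 0.0003. The log2 fold changes of Rpl9, Rps4x, Rps9 and Rpl27a were -1.21, -1.14, -1.17 and -1.29, with adjusted p of 0.000222 to 0.00037. The largest fall of the small subunit was that of Rps15a, whose row spans 5136 exon bases (chromosome 7, 118104374 to 118116147). It had 36.8, 34.5 and 26.4 TPM in Th1 KO libraries, against 101, 91.9 and 88.8 TPM in Th1 WT libraries, and its log2 fold change was -1.51 ± 0.16 (SE), adjusted p = 0.00037. TPM divides by this combined length, and the reads behind the gene numbered 706 to 5440 per library. Among the called members with small falls was Rpl24, a protein of the large subunit, at -0.68 ± 0.13 (SE), adjusted p = 0.00402.

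**Figure D2:**
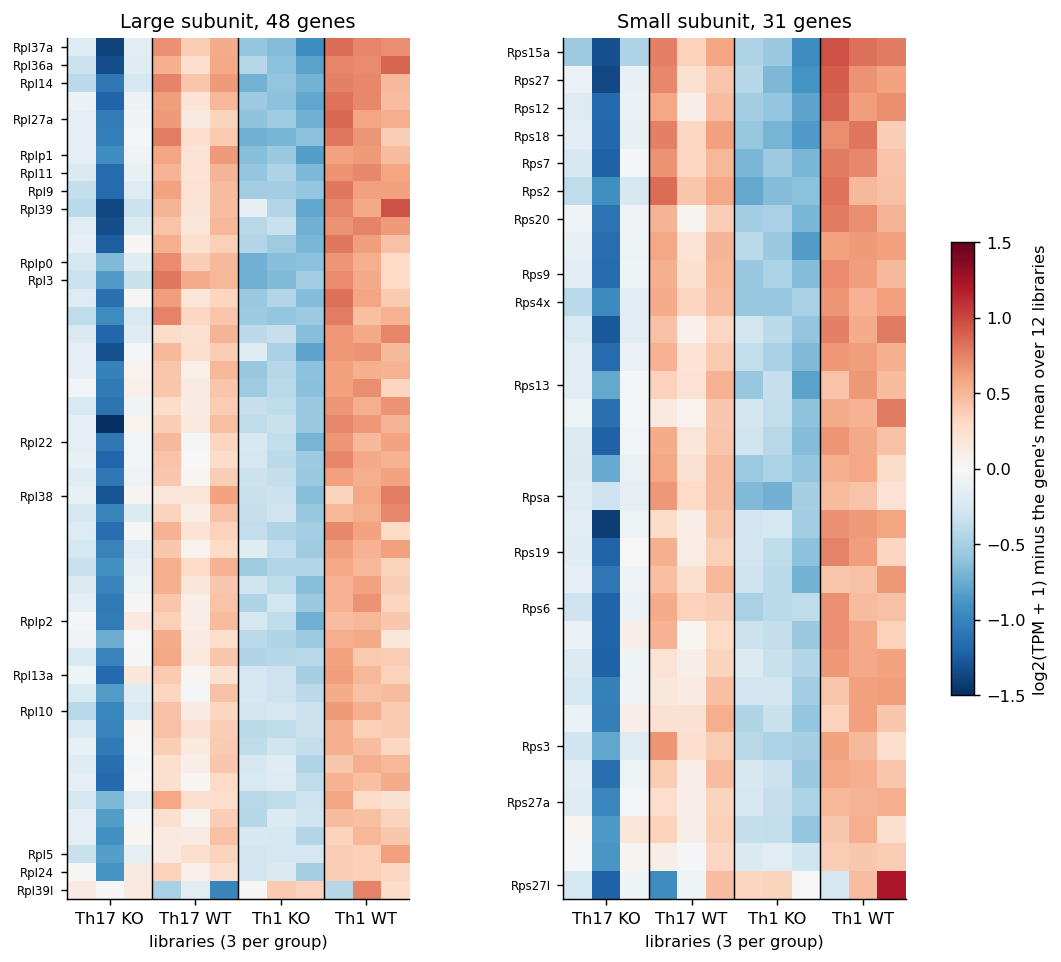
Log2(TPM + 1) of the 79 tested members minus each gene's own mean over the 12 libraries (colour, from -1.5 in blue to 1.5 in red), in the 4 groups of 3 libraries in replicate order; large subunit left, small subunit right, ordered by the Th1 fold change, with names at the rows of members described in the text. Th1 KO columns are low and Th1 WT columns high for all rows but Rpl39l and Rps27l, and in Th17 KO the middle column, replicate 2, is the lowest for most rows.

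In Th17 cells few members passed the test. The median log2 fold change, KO over WT, was -0.78 for the large and -0.81 for the small subunit, and the median over all genes tested was 0.04. This size rests in part on Th17 KO replicate 2, without which the median over the members was -0.46 and that over all genes -0.11. All tested members but Rpl39l had a fold change below 0, against 6571 of all 13823 genes tested. Called lower were 4 of 79 (Rpl3, Rps15a, Rps2 and Rpl14), 2 of each subunit, and none higher, against 2.7% of all 13823 genes tested called lower. At an unadjusted p under 0.05 there were 53 members, against 3453 of all 13823 genes tested. Every KO library lay below every WT library for 71 of the 79 tested members, against 18.2% of all genes tested. Among the members whose groups overlapped were Rpl13a, Rpl24, Rplp2, Rps14, Rps16 and Rps27l, and Rpl39l was higher in every KO library.

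Rpl3, which lines the peptidyl transferase centre (chromosome 15, 80077781 to 80083406), had 1335, 927 and 1325 TPM in Th17 KO libraries, against 2910.3, 2465 and 2362 TPM in Th17 WT libraries. Its lowest WT value exceeded its highest KO value, and the log2 fold change was -1.12 ± 0.22 (SE), adjusted p = 0.029. Rps2, a protein at the mRNA entry channel (chromosome 17, 24718121 to 24721927), had 1054, 723 and 1165 TPM in Th17 KO libraries, against 2443, 1822 and 2053 TPM in Th17 WT libraries, a log2 fold change of -1.12 ± 0.24 (SE), adjusted p = 0.0386. Rpl14 had 1073, 669.7 and 1169.5 TPM in Th17 KO libraries, against 2353, 1873 and 2185 TPM in Th17 WT libraries, and its log2 fold change was -1.17 ± 0.26 (SE), adjusted p = 0.0399. In these genes replicate 2 was the lowest KO library, and the other 2 KO libraries were close to each other. Rps15a had 34.9, 20 and 36.8 TPM in Th17 KO libraries, against 87.4, 65.6 and 78 TPM in Th17 WT libraries, and its log2 fold change of -1.34 ± 0.28 (SE), adjusted p = 0.0348 was the lowest of the family in this lineage as well. In Th1 the same 4 genes had log2 fold changes of -1.16 for Rpl3, -1.25 for Rps2, -1.32 for Rpl14 and -1.51 for Rps15a, all called.

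The Th17 count depended on the libraries. Th17 KO replicate 2 had a median log2 level of the members -0.98 from the rest of its group. Without it 17 of 78 tested members were called lower, and the 4 calls remained among them, while 8.44% of all genes were called lower in that fit. Without Th17 KO replicate 1 or 3, or without any 1 of the 3 Th17 WT libraries, 0 members were called, with medians from -0.98 to -0.72. Deviations from the group means correlated at 0.14, 0.41 and 0.23 between same-numbered Th17 KO and WT libraries, and at -0.41 to 0.11 between differently numbered ones. The labels do not give such a pairing. With the replicate number as a block 11 of 79 members were called lower, against 3.65% of all genes. These were the 4 and Rpl7, Rps4x, Rpl39, Rpl9, Rpl36a, Rpl37a and Rps18. When all 12 libraries shared 1 estimate of the spread, 48 of 79 members were called lower in Th17, against 9.45% of all genes, and 73 of 79 in Th1, against 8.42%.

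The stalk of the large subunit, which recruits the translation factors that hydrolyse GTP, is built from Rplp0, Rplp1 and Rplp2. Rplp0 (chromosome 5, 115559467 to 115563729) had 2338, 1763 and 2474 TPM in Th17 KO libraries, against 4579, 3615 and 3909 TPM in Th17 WT libraries. It had 1692, 1798 and 1829 TPM in Th1 KO libraries, against 4439, 4095 and 3445 TPM in Th1 WT libraries. Its log2 fold change was -0.89 ± 0.22 (SE), adjusted p = 0.0554 in Th17 and -1.16 ± 0.13 (SE), adjusted p = 0.000429 in Th1. The KO libraries were below the WT libraries in both lineages, but the Th17 difference did not pass the test. Rplp1 averaged 980.2 ± 295 TPM in Th17 KO and 1729 ± 275 TPM in Th17 WT, and 773 ± 75 TPM in Th1 KO and 1826 ± 110.0 TPM in Th1 WT (SD, n = 3 each). The fold change on the log2 scale was -0.86 ± 0.28 (SE), adjusted p = 0.12 in Th17 and -1.24 ± 0.13 (SE), adjusted p = 0.000308 in Th1. Rplp2 averaged 733 ± 282 TPM in Th17 KO and 1072 ± 141 TPM in Th17 WT, and 632 ± 100.2 TPM in Th1 KO and 1177 ± 35.8 TPM in Th1 WT. The value was -0.62 ± 0.33 (SE), adjusted p = 0.283 in Th17, where the groups overlapped, and -0.91 ± 0.15 (SE), adjusted p = 0.00204 in Th1.

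Rpl5 and Rpl11 bind 5S ribosomal RNA, and outside the ribosome the same particle binds Mdm2 and so stabilises p53. Rpl5 had 341, 243 and 393 TPM in Th17 KO libraries, against 472, 517 and 545 TPM in Th17 WT libraries. In Th1 it had 355, 360.1 and 363 TPM in Th1 KO libraries, against 555, 552 and 661 TPM in Th1 WT libraries. The 3 Th1 KO values were close to each other, and the groups did not overlap in either lineage. Its log2 fold change was -0.68 ± 0.22 (SE), adjusted p = 0.117 in Th17 and -0.71 ± 0.13 (SE), adjusted p = 0.00374 in Th1. Rpl11 had 268, 139 and 289 TPM in Th17 KO libraries, against 443, 359 and 444 TPM in Th17 WT libraries, a log2 fold change of -0.90 ± 0.30 (SE), adjusted p = 0.123. In Th1 it had 209, 226 and 195 TPM in Th1 KO libraries, against 499.7, 515 and 473 TPM in Th1 WT libraries, a log2 fold change of -1.24 ± 0.13 (SE), adjusted p = 0.000291. In Th1, Rpl11 was thus among the 10 members with the smallest adjusted p, and Rpl5 among the called members with small falls.

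Rpl10 completes the large subunit late in its maturation. It averaged 970.3 ± 246 TPM in Th17 KO and 1699.9 ± 186 TPM in Th17 WT, and 1132 ± 25.6 TPM in Th1 KO and 1993 ± 170.2 TPM in Th1 WT (SD, n = 3 each). On the log2 scale its fold change was -0.84 ± 0.24 (SE), adjusted p = 0.0878 in Th17 and -0.81 ± 0.12 (SE), adjusted p = 0.00142 in Th1. Rpl13a, known also from the interferon gamma-activated repression of translation in human monocytes, had 725, 338 and 855 TPM in Th17 KO libraries, against 998, 775 and 887 TPM in Th17 WT libraries. Th17 KO replicate 3 exceeded Th17 WT replicate 2, and the log2 fold change was -0.57 ± 0.35 (SE), adjusted p = 0.356 in Th17 and -0.85 ± 0.13 (SE), adjusted p = 0.00192 in Th1. Rpl22, which mouse alpha beta T cells need in their development, had 61.8, 31.8 and 66 TPM in Th17 KO libraries, against 95.8, 67.2 and 85 TPM in Th17 WT libraries. Its highest KO and lowest WT library were close to each other in Th17, with a log2 fold change of -0.68 ± 0.32 (SE), adjusted p = 0.233. In Th1 it had 57.5, 52.1 and 41.4 TPM in Th1 KO libraries, against 108, 95.5 and 104 TPM in Th1 WT libraries, a log2 fold change of -1.02 ± 0.16 (SE), adjusted p = 0.00186. Rpl38, which favours translation of Hox mRNAs in the mouse embryo, had a log2 fold change of -0.78 ± 0.37 (SE), adjusted p = 0.236 in Th17 and -0.998 ± 0.16 (SE), adjusted p = 0.00216 in Th1.

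Among the small subunit members described by role, Rps6 is the one phosphorylated by S6 kinase downstream of mTORC1. Rps6 (chromosome 4, 86854099 to 86857367) had 717, 386 and 836 TPM in Th17 KO libraries, against 1306, 1125 and 1151 TPM in Th17 WT libraries. It had 631, 669 and 684 TPM in Th1 KO libraries, against 1424, 1230.3 and 1207 TPM in Th1 WT libraries. The groups did not overlap, and the log2 fold change was -0.96 ± 0.30 (SE), adjusted p = 0.108 in Th17 and -0.96 ± 0.13 (SE), adjusted p = 0.000801 in Th1. Rpsa, first described as a laminin receptor, had 1237, 1142 and 1271 TPM in Th17 KO libraries, against 2221, 1733 and 1940.2 TPM in Th17 WT libraries. Its 3 Th17 KO values were close to each other, replicate 2 included, unlike those of most members. Its log2 fold change was -0.68 ± 0.18 (SE), adjusted p = 0.0704 in Th17 and -0.999 ± 0.13 (SE), adjusted p = 0.000782 in Th1. Rps3, at the mRNA entry site, had a log2 fold change of -0.86 ± 0.23 (SE), adjusted p = 0.0681 in Th17 and -0.91 ± 0.13 (SE), adjusted p = 0.00124 in Th1. Rps19, the protein most often altered in human Diamond-Blackfan anaemia, had -0.79 ± 0.33 (SE), adjusted p = 0.195 in Th17 and -0.99 ± 0.15 (SE), adjusted p = 0.00176 in Th1. Rps27a, made as a fusion with ubiquitin, had -0.63 ± 0.28 (SE), adjusted p = 0.21 in Th17 and -0.88 ± 0.12 (SE), adjusted p = 0.00103 in Th1.

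The paralogs Rps27l and Rpl39l were called in neither lineage. Rpl32l, another tested member with a name ending in l, was called lower in Th1 but not in Th17. It had 37.8, 41 and 35.3 TPM in Th1 KO libraries, against 100.2, 85 and 74.2 TPM in Th1 WT libraries. Rps27l, a paralog of Rps27 that p53 induces, had 90.3, 46 and 104 TPM in Th17 KO libraries, against 55.7, 103 and 150.2 TPM in Th17 WT libraries. It had 136, 137 and 109 TPM in Th1 KO libraries, against 91, 149.9 and 253 TPM in Th1 WT libraries. The groups overlapped in both lineages, and the log2 fold change was -0.33 ± 0.44 (SE), adjusted p = 0.679 in Th17 and -0.25 ± 0.32 (SE), adjusted p = 0.585 in Th1. Rps27 itself was at -1.39 ± 0.16 (SE), adjusted p = 0.000447 in Th1. Rpl39l, a testis paralog of Rpl39, had 1 to 26 reads per library. It had 1.35, 1.19 and 1.4 TPM in Th17 KO libraries, against 0.544, 0.935 and 0.0915 TPM in Th17 WT libraries, and its log2 fold change was 0.64 ± 0.24 (SE), adjusted p = 0.161 in Th17, on a scale that understates changes of low values. In Th1 the value was 0.06 ± 0.29 (SE), adjusted p = 0.901, and the groups overlapped. Rpl39, at the exit of the peptide tunnel, was at -1.20 ± 0.19 (SE), adjusted p = 0.00179 in Th1. The difference between a paralog and its partner was not tested. Rps4l is annotated as a transcribed pseudogene in the tables and so is no member.

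Members that fell most in 1 lineage tended to be low in the other. The 2 genotype comparisons share no library, but they may not be independent. Deviations from the group means correlated at 0.72, 0.26 and 0.53 between same-numbered WT libraries of both lineages. Between differently numbered ones they correlated at -0.61 to 0.28. Across 78 members with at least 5 TPM in the mean of every group, the log2 fold changes of Th17 and Th1 had a Pearson r of 0.80 and a Spearman rho of 0.76. Both are given as a description across genes that share libraries and depth. Of the 10 members with the lowest fold change in each lineage, 5 were shared, Rpl14, Rpl36a, Rpl37a, Rps15a and Rps18. Of the 10 with the highest, 6 were shared, among them Rpl24, Rpl26, Rpl27, Rpl29 and Rps27l. Rps18, for example, had 1888, 940.4 and 1976 TPM in Th17 KO libraries, against 3595, 2636 and 3258 TPM in Th17 WT libraries. The same gene had 1436, 1315 and 1178 TPM in Th1 KO libraries, against 3457, 3724 and 2757 TPM in Th1 WT libraries. Rpl24 had 772, 413 and 839 TPM in Th17 KO libraries, against 968, 801 and 917 TPM in Th17 WT libraries, and in Th17 its groups overlapped. In Th1 it had 622, 652 and 538 TPM in Th1 KO libraries, against 984, 979 and 942 TPM in Th1 WT libraries, without overlap.

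**Figure D3:**
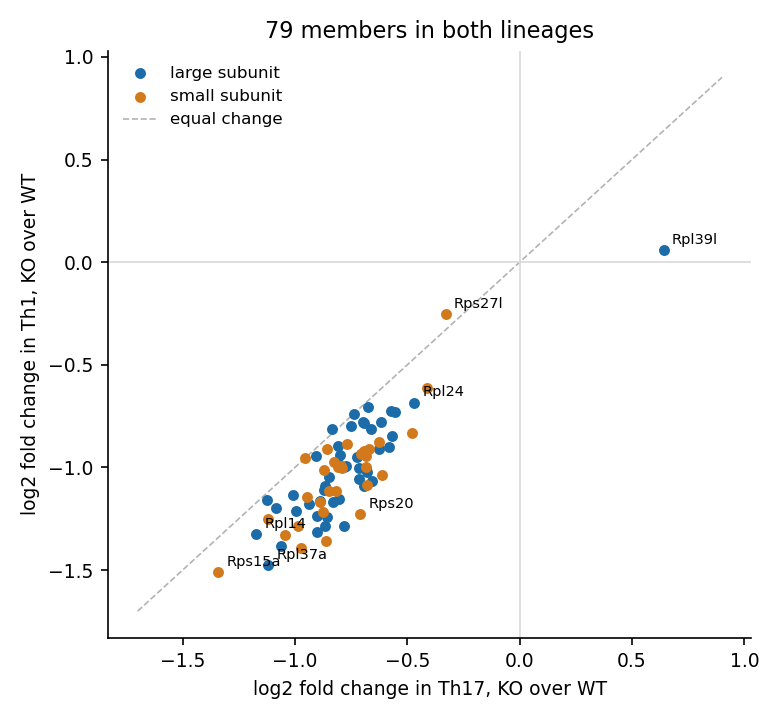
Log2 fold change, KO over WT, of the 79 tested members in Th17 (horizontal) against Th1 (vertical), with the dashed line marking equal change. Large and small subunit members lie in 1 cloud, most of it below the line, from Rps15a (-1.34 and -1.51) to Rpl24 (-0.47 and -0.68), with Rps27l and Rpl39l apart.

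The members are short, with a median combined exon length of 821 bases, and genes of different length differed on median between KO and WT. Among other protein-coding genes, those with symbols beginning Rpl or Rps left out, the median log2 fold change in Th17 was 0.03 up to 500 bases, -0.15 from 500 to 1000, -0.14 from 1000 to 2000, 0.05 from 2000 to 4000 and 0.37 above. In Th1 the same medians were -0.13, -0.17, -0.02, 0.10 and 0.15. The members' median lay lower in every class. Their medians in Th17, for the 4 classes up to 4000 bases, were -0.85 (11 members), -0.79 (39), -0.80 (22) and -0.69 (6). In Th1 they were -1.11, -0.998, -0.98 and -0.78, and above 4000 bases stood only Rps15a. Among the members the fold change showed little relation to length, with a Pearson r of -0.0035 in Th17 and 0.17 in Th1 over 78 genes. These values describe genes that share libraries, with no p.

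Removing a smooth trend of level on exon length, fitted in each library on the tested genes that are no member, gave the members a median of -0.59 in Th17, where it was -0.79 before, and of -0.81 in Th1, where it was -1.003. The number called lower was then 13 of 79 in Th17, against 5.66% of all genes, and 76 of 79 in Th1, against 15.8%. Rps15a, the longest member, lost its Th17 call, at -1.65 with an adjusted p of 0.0651. Among the members the trend-removed fold changes went with length, with a Pearson r of -0.49 in Th17 and -0.44 in Th1 over 78 genes, again as a description. By subunit these medians were -0.60 for the large and -0.58 for the small subunit in Th17, and -0.84 and -0.80 in Th1. Pseudogene copies are short genes outside the members that can draw the same reads, so the trend was also fitted on protein-coding genes whose symbols do not begin with Rpl or Rps, an alternative added after the data had been seen. The medians were then -0.68 in Th17 and -0.89 in Th1, with 34 of 79 members called lower in Th17, against 6.72% of all genes, and 77 of 79 in Th1, against 16%. The Th17 call of Rps15a was lost here too, at -1.66 with an adjusted p of 0.0721. By subunit they were -0.68 for the large and -0.74 for the small in Th17, and -0.89 and -0.91 in Th1.

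**Figure D4:**
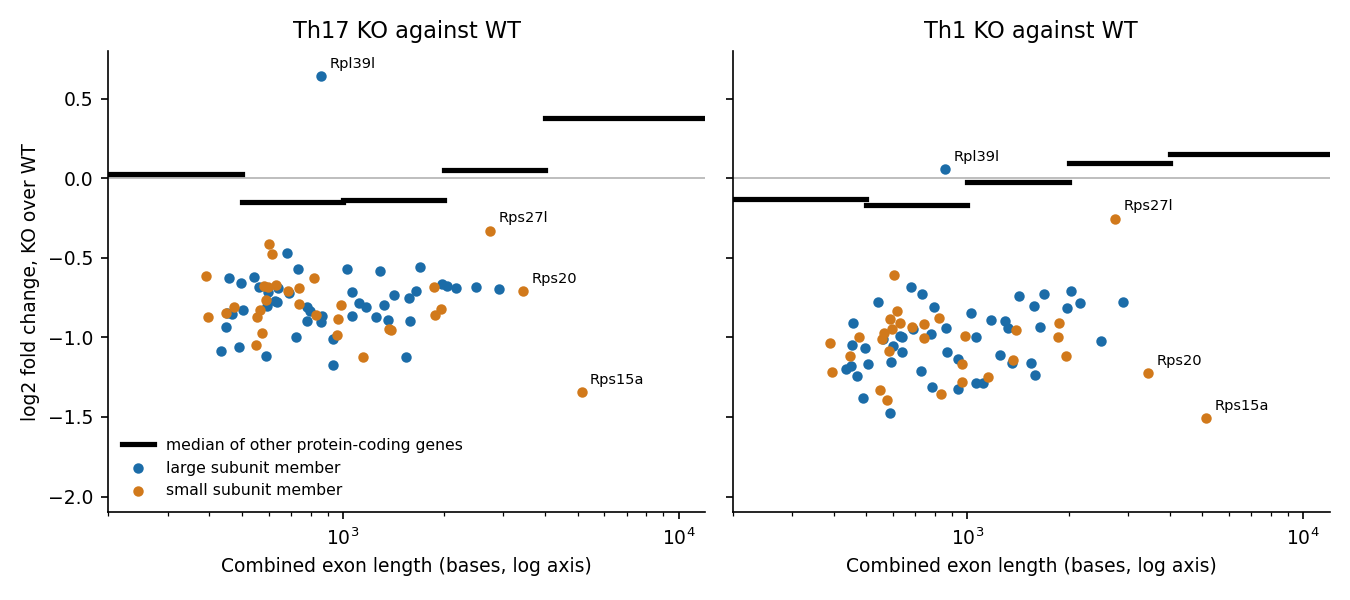
Log2 fold change, KO over WT, of each tested member against its combined exon length in bases (log axis), Th17 left and Th1 right. Black bars are medians of other protein-coding genes in 5 length classes, the outer ones cut at the edges of the axis; members lie below them at all lengths, Rpl39l excepted.

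Between the lineages no member passed the test. Among KO libraries, Th17 against Th1, 0 of 79 members were called by limma. At an unadjusted p under 0.05 there was 1 member, against 2997 of all 14579 genes tested. The median log2 fold change was 0.01, with 0.13 over all genes. Under median-of-ratios scaling both medians were lower, at -0.16 for the members and -0.02 over all genes. Of all 14579 genes tested, 5.91% were called in either direction. The smallest adjusted p were those of Rpsa, at 0.41 ± 0.14 (SE), adjusted p = 0.135, Rps27l, at -0.73 ± 0.42 (SE), adjusted p = 0.351, Rplp0, at 0.29 ± 0.17 (SE), adjusted p = 0.352, and Rpl10, at -0.26 ± 0.19 (SE), adjusted p = 0.465. Rpsa was higher in every Th17 KO library than in any Th1 KO library, and Rps27l lower. The highest large subunit value was that of Rplp1, at 0.30. Without Th17 KO replicate 2 the median was 0.34 and 4 of 79 members were called higher, Rplp1, Rps16, Rpl28 and Rpl37a, a share near the 4.34% of all genes called higher in that fit. With voom on the recovered reads 0 were called.

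Among WT libraries, Th17 against Th1, 0 of 79 members were called by limma, and 0 with voom, against 3.63% of all genes tested. The median log2 fold change was -0.23, with 0.14 over all genes. Below 0 lay 75 of 79 members, against 5136 of all 14579 genes tested. At an unadjusted p under 0.05 there was 1 member, against 2134 of all genes tested. Without Th17 WT replicate 2 the median was -0.12, and under median-of-ratios scaling -0.41. Every Th17 library lay below every Th1 library for 28 of the 79 tested members, against 7.89% of all genes tested. The smallest adjusted p were those of Rpl39l, at -0.74 ± 0.29 (SE), adjusted p = 0.25, Rps24, at -0.43 ± 0.25 (SE), adjusted p = 0.494, Rpl34, at -0.34 ± 0.21 (SE), adjusted p = 0.506, and Rps25, at -0.40 ± 0.24 (SE), adjusted p = 0.509. The highest values were those of Rpl3, at 0.09, and Rpsa, at 0.09, and the lowest of the small subunit was Rps27l, at -0.66. Whether the KO effect differed between the lineages was tested as the interaction. By limma and by voom 0 of 79 members were called, against 0.638% of all genes tested by limma. At an unadjusted p under 0.05 by limma there were 0 members, against 930 of all 14579 genes tested. The median of this difference, Th17 minus Th1, was 0.23, and without Th17 KO replicate 2 it was 0.57, with 0 called. In the main fit 77 of 79 members lay above 0 and 2 below, against 7197 of all 14579 genes tested below 0. The smallest adjusted p were those of Rpsa, at 0.31 ± 0.20 (SE), adjusted p = 1, Rpl27a, at 0.50 ± 0.34 (SE), adjusted p = 1, Rps13, at 0.41 ± 0.28 (SE), adjusted p = 1 and Rps20, at 0.52 ± 0.36 (SE), adjusted p = 1. The largest differences were those of Rpl39l, at 0.58 ± 0.42 (SE), adjusted p = 1, and Rps20, and the lowest those of Rpl10, at -0.02, and Rps27l, at -0.08. The counts of members called lower, 77 in Th1 and 4 in Th17, thus do not show a difference between lineages.

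Pseudogene copies followed the members closely. Rows named after a member with the ending -ps number 232, of which 212 had a read, and they summed to 10381 ± 3236 TPM in Th17 KO and 16850 ± 1822 TPM in Th17 WT, and to 9705 ± 395 TPM in Th1 KO and 19029 ± 1244 TPM in Th1 WT (SD, n = 3 each). Reads of near-identical copies can be split between such rows and the member, so the exact level of a member is uncertain. Adding the reads of named pseudogenes back to the member, an alternative added after the data had been seen, left the counts at 4 in Th17 and 77 in Th1. The largest shift was in Rps13, at -0.76 with these reads and -1.09 without them in Th1. The 3 genes outside the members whose log2 level had the highest Pearson r with the summed level over 12 libraries were pseudogenes, Gm10288 and Rps12-ps4 at 0.997 and Gm5905 at 0.996. Among annotated protein-coding genes with other names, looked up after the values were seen, Atp5g2, a subunit of the mitochondrial ATP synthase, led with an r of 0.995. It had 177, 114 and 191 TPM in Th17 KO libraries, against 281, 219 and 252 TPM in Th17 WT libraries. In Th1 it had 156, 151 and 144 TPM in KO libraries, against 276, 298 and 256 TPM in WT libraries. Gm5148 followed at 0.993 and the elongation factor gene Eef1b2 at 0.984.

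Counts for other gene lists are to be read against all genes tested, of which 2.7% were called lower and 4.6% higher in Th17, and 13.7% lower and 17.6% higher in Th1. Of 7 ribosomal proteins outside the name rule, 6 were called lower in Th1 and 0 in Th17, with median log2 fold changes of -0.59 and -0.53. In Th1, Rps3a1 was at -0.88 ± 0.12 (SE), adjusted p = 0.000995, Rack1, a scaffold on the small subunit head, at -0.61 ± 0.12 (SE), adjusted p = 0.00476, and Rpl22l1 at -0.97 ± 0.19 (SE), adjusted p = 0.00577. In Th17 the smallest adjusted p were those of Rpl22l1, at -0.90 ± 0.30 (SE), adjusted p = 0.123, Rack1, at -0.53, and Rpl7l1, at -0.54. Of 6 elongation factors 4 fell in Th1 and 1 in Th17, with medians of -0.80 and -0.56. Eef1g, a subunit of the exchange factor of elongation factor 1, fell in both lineages, with a log2 fold change of -0.89 ± 0.18 (SE), adjusted p = 0.0286 in Th17 and -0.87 ± 0.12 (SE), adjusted p = 0.00112 in Th1. Eef1b2 and Eef2, the translocase, fell in Th1 at -1.01 and -1.06. Eef1a1, which delivers aminoacyl-tRNA and is itself a TOP mRNA, had 3022, 3141 and 3053 TPM in Th17 KO libraries, against 5522, 4547 and 4106 TPM in Th17 WT libraries. Its Th17 KO replicate 2 was not lower than the other KO libraries, unlike the members, and its log2 fold change was -0.61 ± 0.20 (SE), adjusted p = 0.117 in Th17 and -0.72 ± 0.14 (SE), adjusted p = 0.00514 in Th1. Eef1d and Eif5a were not called, at -0.05 and -0.10 in Th1.

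Of 28 initiation factors 8 fell in Th1 and 0 in Th17, with medians of -0.23 and -0.19. The smallest adjusted p in Th1 were those of Pabpc1, the poly(A)-binding protein and a TOP mRNA, at -1.19 ± 0.20 (SE), adjusted p = 0.00275, Eif3i, at -0.71 ± 0.13 (SE), adjusted p = 0.00362, and Eif3f, at -0.74 ± 0.14 (SE), adjusted p = 0.00499. In Th17 they were those of Eif3i, at -0.71 ± 0.18 (SE), adjusted p = 0.0634, Eif3e, at -0.49, and Eif3d, at -0.41. Of 9 import and assembly chaperones 3 fell in Th1 and 2 in Th17. Tsr2, which escorts Rps26, was at -1.09 ± 0.24 (SE), adjusted p = 0.0406 in Th17 and -1.15 ± 0.19 (SE), adjusted p = 0.00235 in Th1. Pdcd2, which escorts Rps2, had 40.4, 31.3 and 39.8 TPM in Th17 KO libraries, against 89.5, 76.2 and 85.7 TPM in Th17 WT libraries, and its log2 fold change was -1.16 ± 0.20 (SE), adjusted p = 0.0193 in Th17 and -0.90 ± 0.17 (SE), adjusted p = 0.00498 in Th1. Bccip, which escorts Rpl23, was at -0.78 ± 0.21 (SE), adjusted p = 0.069 in Th17 and -0.65 ± 0.15 (SE), adjusted p = 0.0118 in Th1. Of 78 mitochondrial ribosomal proteins, which translate the proteins encoded in mitochondrial DNA, 27 fell and 1 rose in Th1 and 3 fell in Th17, with medians of -0.39 and -0.49, and the Th17 count is near the share over all genes. Mrpl9 was at -0.85 ± 0.18 (SE), adjusted p = 0.0355 in Th17 and -0.95 ± 0.14 (SE), adjusted p = 0.00139 in Th1. Mrps6 and Mrps23 were at -0.86 and -0.89 in Th17, and Mrpl24 and Mrps18a at -0.82 and -0.79 in Th1, all called. Their summed level averaged 6820 ± 1415 TPM in Th17 KO and 9292 ± 1249 TPM in Th17 WT, and 7373 ± 341 TPM in Th1 KO and 9877 ± 1076 TPM in Th1 WT (SD, n = 3 each).

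Among 15 tested genes of mTORC1 and of TOP mRNA control, 4 rose and 1 fell in Th1 and 0 were called in Th17, beside 17.6% higher and 13.7% lower over all genes, which does not set the list apart. The 4 that rose were Sesn2, an inhibitor of mTORC1 in the amino acid response, at 1.09 ± 0.18 (SE), adjusted p = 0.00228, Akt1s1, a subunit of mTORC1 that restrains it, at 0.79 ± 0.17 (SE), adjusted p = 0.0077, Rheb, its activator, at 0.81 ± 0.20 (SE), adjusted p = 0.0155, and the S6 kinase gene Rps6kb2, at 0.83 ± 0.22 (SE), adjusted p = 0.0198. Eif4ebp1, a repressor of cap-dependent initiation that mTORC1 switches off, fell at -0.99 ± 0.28 (SE), adjusted p = 0.0263. In Th17 the smallest adjusted p were those of Eif4ebp1, at -1.29 ± 0.36 (SE), adjusted p = 0.0794, Sesn2, at 1.49 ± 0.52 (SE), adjusted p = 0.133, and Rheb, at 0.50 ± 0.21 (SE), adjusted p = 0.192. Larp1 had 29.6, 101 and 30.1 TPM in Th17 KO libraries, against 26.7, 39.7 and 29.9 TPM in Th17 WT libraries, where replicate 2 of the KO group stood alone. Its log2 fold change was 0.49 ± 0.48 (SE), adjusted p = 0.56 in Th17 and -0.01 ± 0.15 (SE), adjusted p = 0.955 in Th1. RNA levels of these genes do not measure the activity of mTORC1.

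Markers of other cell types differed between the genotypes beside these results. All 4 gamma delta T cell markers (Trdc, Trgc1, Trgc2 and Trgc4) were called higher in both lineages and summed to 165 to 255 TPM in Th17 KO, 17.3 to 20.1 TPM in Th17 WT, 171 to 268 TPM in Th1 KO and 13.7 to 33.3 TPM in Th1 WT. CD8 T and natural killer cell markers summed to 88.2 to 99.9 TPM in Th17 KO, 48.9 to 64.1 TPM in Th17 WT, 191 to 281 TPM in Th1 KO and 61.8 to 78.0 TPM in Th1 WT, with 2 of 5 tested called higher in Th17, and 3 higher and 2 lower in Th1. The 2 lower in Th1 were Cd8a and Cd8b1, with log2 fold changes of -0.90 and -0.76, and neither was called in Th17. The 3 higher in Th1 were Klrd1, Klrk1 and Klrc1, and the 2 higher in Th17 were Klrk1 and Klrc1. Myeloid markers summed to 44.2 to 64.9 TPM in Th17 KO, 12.4 to 14.6 TPM in Th17 WT, 25.2 to 46.1 TPM in Th1 KO and 10.9 to 14.01 TPM in Th1 WT, with 3 of 5 tested called higher in Th17 and 2 of 3 in Th1. Adgre1 was at 0 in all WT libraries of both lineages, and Csf1r in all Th1 WT libraries. Red cell and platelet markers summed to 46.2 to 115 TPM in Th17 KO, 9.3 to 17.5 TPM in Th17 WT, 59.6 to 198 TPM in Th1 KO and 11.7 to 25.3 TPM in Th1 WT, with 2 of 6 called higher in each lineage. B cell markers summed to 132 to 198 TPM in Th17 KO, 114 to 153 TPM in Th17 WT, 68.4 to 475 TPM in Th1 KO and 88.1 to 112 TPM in Th1 WT, with 1 of 5 called higher in Th17 and 0 of 5 in Th1. The part of these cells in the levels of the members was not tested.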

How the data were processed

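RNA from 12 libraries, made from 5 ng of total RNA with a full-length cDNA kit and Nextera tagmentation that do not mark strand, was sequenced single-end, per the labels' protocols. Build GRCm38.p6 and the tools STAR 2.7.2b, cutadapt, featureCounts 1.6.4 (Subread), bcl2fastq 2.20.0.422 and DESeq2 1.24.0 appear in the submitters' processing notes, with no role given. The authors deposited 1 table per lineage of TPM, with other columns of coordinates and exon length; each library sums to 1000000. How multi-mapping reads were treated is not given in the sources used here. Without strand, reads of a gene and of an overlapping or antisense partner are not separated.

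The values are not counts, so limma 3.58.1 in R 4.3.3 (moderated, mean-variance trend, two-sided) was run on log2(TPM + 1) for genes that reached 1 TPM in 3 or more libraries of the fit, with Benjamini-Hochberg adjustment over all genes and a threshold of 0.05. Genotypes were compared on the 6 libraries of a lineage; lineages and the interaction in a model of 4 group means over 12 libraries. TPM times exon length gave whole reads, within 0.02, for 100.0% of values, and voom was run on them as an alternative. Other alternatives were the pseudocount, the filter, 2 scalings, exon length (lowess, span 0.3), the replicate block, pseudogene reads and leaving out each library. Only the main limma fit of the genotype comparisons was run on simulated reads, which had no outlying library and no exon length trend. The alternatives, the lineage comparisons and the interaction were not tested in this way. No library duplicated another.

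Members, lists and tests were chosen with earlier results of these data known. Some items are not reported here. Members may be named; statistics are given for called members (up to 10, or otherwise the 4 smallest adjusted p), the extremes of each subunit, members by role and, of each other list, the 3 smallest adjusted p. Deviations from the group means correlated between same-numbered Th17 KO and WT libraries at 0.14, 0.41 and 0.23, and between WT libraries of both lineages at 0.72, 0.26 and 0.53. On this alone the number was taken to pair these libraries; in the Th1 genotype comparison (0.16, 0.21 and -0.07) and between KO libraries (0.22, -0.04 and -0.19) it was not.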

Additional observations from a re-analysis of the deposited data

How the results depend on the processing

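The Th1 count of members called lower, 77, stayed between 73 and 77 under every alternative run. The Th17 count, 4, was 0 with no filter on low TPM and with median-of-ratios scaling, and 13 with the exon length trend removed. With that trend fitted on protein-coding genes, added after seeing the data, it was 34. It was 11 with the replicate block, 27 with the replicate block and the length trend removed, and 48 with all 12 libraries in the fit. Leaving out 1 library gave 0 to 17, the 17 without Th17 KO replicate 2. The cause was not tested. Over all genes, 373 were called lower in Th17, with 782 after removal of the length trend, 1377 with all 12 libraries, 1124 without Th17 KO replicate 2, 15 to 128 without any other 1 library, and 248 to 929 under the remaining alternatives. In Th1 1846 were called lower, 1227 with all 12 libraries and 1197 without Th1 KO replicate 1. With voom the median over all genes was -0.09 in Th17, where it was 0.04 on the TPM scale. Th17 against Th1 in KO gave 0 members, and 0 to 4 on leaving out 1 library. The Th17 against Th1 count in WT and the interaction stayed at 0 in every alternative run, the replicate block included. In Th1, where the number was not taken to pair libraries, the block gave 77 as well.

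The log2 ratio of large to small subunit, KO minus WT, was -0.05 in Th17, and 0.029 as a mean of log2 values per subunit, -0.085 for the shorter and 0.031 for the longer members. In Th1 it was -0.02, and 0.017 from sums of reads, 0.040 as a mean of log2 values, -0.081 for the shorter and 0.081 for the longer members. Its sign therefore depended on how the members were weighted. The summed level kept its sign in all alternatives, from -0.98 to -0.52 in Th17 and from -1.11 to -0.98 in Th1. Limits are the 3 libraries a group, of which 1 stands apart, and reads shared with pseudogenes, which leave the level of single members uncertain.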
